A study of Homo sapiens with 33 samples.

Results

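The comparison described here sets the high dose of an ethanol extract of Sibjeondaebo-tang (500 µg/mL) against its low dose (20 µg/mL) in HT29 cells, an established human colorectal adenocarcinoma line. It compares 6 of the 33 libraries of the series, 3 per dose, chosen by their labels alone, and no vehicle library is among the 6. Sibjeondaebo-tang is a multi-herb tonic formula of Korean medicine that adds astragalus root and cinnamon bark to the herbs of Palmul-tang. Cells were exposed for 24 h, RNA was read as stranded paired 100 bp libraries, and the deposited values are estimated counts per gene. The other groups used below for orientation were the medium dose of the same extract (100 µg/mL, 3 libraries), vehicle (DMSO, 3 libraries) and the high and low doses of Palmul-tang ethanol extract (500 and 20 µg/mL, 3 libraries each). Both doses compared share the cell line, the extract and the exposure time, and all titles name the same batch. Whether replicates were separate cultures is not in the labels, so a p-value speaks only of the scatter among libraries, part or all of which could be technical. That scatter was estimated from all 33 libraries.

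Many herbal constituents are electrophiles, and epithelial cells answer electrophiles through NRF2 (gene NFE2L2), a transcription factor that KEAP1 holds at low levels until cysteines of KEAP1 are modified. NRF2 then binds antioxidant response elements beside genes for quinone, carbonyl and aldehyde detoxification, glutathione and thioredoxin synthesis, iron storage and NADPH supply. Misfolded protein is met by other programmes: heat shock factors in the cytosol, the unfolded protein response in the endoplasmic reticulum, and more proteasome. Sterol synthesis genes are driven by SREBP2, which is held back when membranes are rich in sterol.

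Depth was alike at both doses, with totals of 40.7 to 45.4 (in units of 1e6 counts) at the high dose and 42.0 to 42.6 at the low dose. Epithelial markers summed to 13250 to 13790 CPM (counts per 1e6 counts, TMM-normalised here and below) at the high dose and 12660 to 12860 at the low dose. All 12 were detected, although CDX2 was low at 4.09 and 4.94 CPM. Fibroblast markers summed to 3.17 to 3.67 and 3.35 to 3.44 CPM with 2 of 10 at 0 in all 6 libraries, and enteroendocrine markers to 1.38 to 1.46 and 1.84 to 2.01 CPM with 1 of 10 at 0. Endothelial markers were not near 0, with sums of 49.5 to 53.7 and 46.3 to 48.8 CPM and 1 of 8 at 0. Leukocyte markers summed to 1543 to 1651 and 1475 to 1525 CPM, nearly all of it LYZ, a lysozyme gene that is also on the list of secretory cell genes, while 3 of 12, among them the T cell gene CD3D, were at 0. None of the 16 tested members of the fibroblast, endothelial, leukocyte and enteroendocrine lists was called in either direction.

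Of 17433 genes tested, 5207 (29.9%) differed between the doses: 2708 (15.5%) were higher and 2499 (14.3%) lower at the high dose by edgeR's quasi-likelihood test at an adjusted p under 0.05. Sizeable falls were more numerous than sizeable rises: 944 genes (5.42%) fell by at least 0.5 on the log2 scale, and 113 (0.648%) rose by that much. The largest single changes were rises among the better expressed genes. Of genes with a mean log2 CPM of at least 2 that met the naming rule, AKR1C2 rose most (2.31) and IGFL2-AS1 fell most (-1.19). The median over called genes was 0.195 for those higher and -0.397 for those lower, against -0.008 over all genes tested. Direction went with expression level. In the highest quintile of average expression 39.8% of protein-coding genes were higher and 7.31% lower (median 0.09), whereas in the second lowest quintile 3.33% were higher and 23.2% lower (median -0.16). For lists of abundant genes the share of members called higher is therefore to be set against 39.8% as well as against 15.5%.

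**Figure D1:**
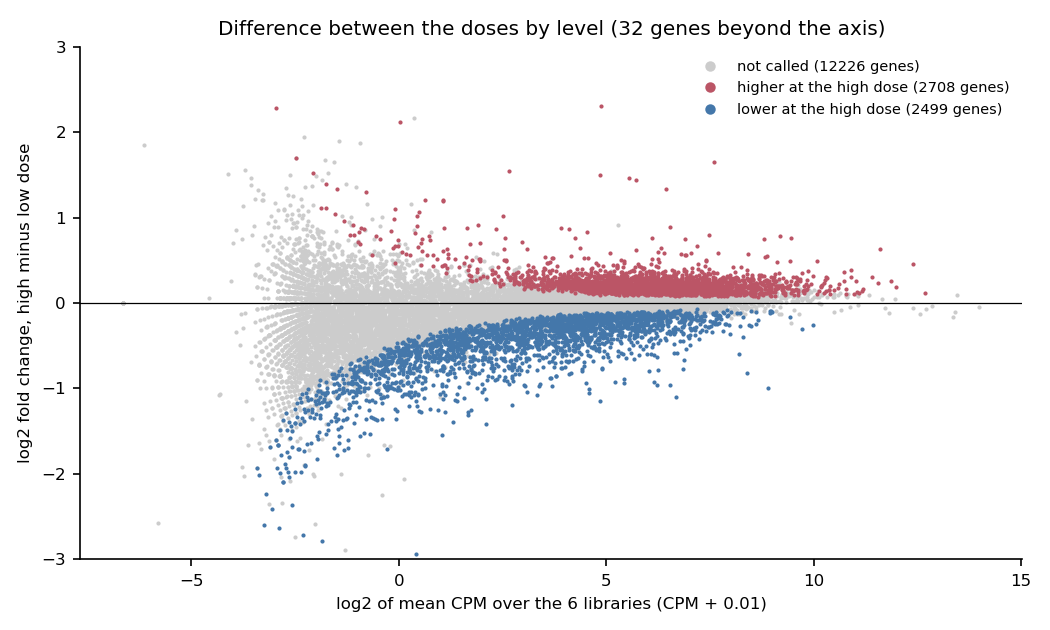
Each point is 1 of 17433 genes, with log2 of its mean CPM over the 6 libraries on the x axis and the log2 fold change, high minus low dose, on the y axis; colours mark the 2708 genes called higher and the 2499 called lower. Called falls of at least 0.5 outnumber called rises of that size, and rises gather among abundant genes.

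Stretches of promoter are shown for 4 genes that were higher at the high dose and hold a motif of the factor that the group is known for, to show what such a site looks like. They run 5′ to 3′ on the strand of the gene and end at or before the annotated start, from RefSeq on GRCh38.p14, and capitals mark the motif. GCLM (chr1:93909431-93909507, minus strand) holds the antioxidant response element core TGACNNNGC on the opposite strand, beginning 34 bases before the start. HSPA5 (chr9:125241348-125241452, minus strand) holds the endoplasmic reticulum stress element, CCAAT and CCACG with 9 bases between them, beginning 66 bases before it. HSPA8 (chr11:123062137-123062234, minus strand) holds the heat shock element, TTC, GAA and TTC with 2 bases between each, beginning 55 bases before it, and NAT10 (chr11:34105571-34105628, plus strand) holds the E-box CACGTG beginning 15 bases before it.
GCLM: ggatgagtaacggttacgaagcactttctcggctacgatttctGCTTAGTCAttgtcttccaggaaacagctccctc
HSPA5: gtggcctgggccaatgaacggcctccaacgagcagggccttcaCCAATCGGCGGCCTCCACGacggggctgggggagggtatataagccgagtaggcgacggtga
HSPA8: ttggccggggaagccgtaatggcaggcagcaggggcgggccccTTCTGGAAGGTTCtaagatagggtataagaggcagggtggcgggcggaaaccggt
NAT10: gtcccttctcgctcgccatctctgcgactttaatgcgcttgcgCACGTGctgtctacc

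These motifs were searched on both strands in windows of 250 bases before to 50 after the start. The antioxidant core was in 6 of the 21 NRF2 targets with 1 promoter in the table (28.6%) and in 13.3% of all 35116 promoters. The stress element was in 5 of 21 unfolded protein response genes (23.8%) and in 0.0769% of all promoters, and the heat shock element in 3 of 16 chaperone genes (18.8%) and 0.49%. An E-box was in 11 of 19 ribosome biogenesis genes (57.9%) and in 7.26% of all promoters. The amino acid response core TGATGNAA was in 2 of 12 ATF4-related genes and 3.62% of promoters, and the sterol element TCACNCCAC in 1 of 15 sterol genes and 1.13%. A match is a run of letters and not evidence of binding.

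NRF2 targets made up 11 of the 15 largest rises. Of the 39 measured targets 37 were higher (94.9%, against 15.5% of all genes and 39.8% of the highest quintile). One target, counted as 1 of the 39, was lower, and the median was 0.64. The list was chosen with earlier results of these data known, so its shares are description and not a test. The 5 aldo-keto reductases, which reduce reactive carbonyls and steroids, had the largest median of the roles, 1.50. AKR1C2 (ENSG00000151632, chromosome 10, 4987400 to 5018031) was at 47.1, 47.9 and 50.6 CPM in the 3 high-dose libraries and at 9.92, 9.68 and 9.82 in the 3 low-dose libraries, a 4.95-fold difference (2.31 ± 0.07, log2 ± SE, adjusted p = 4.23e-19). The doses did not overlap here, nor, with the high dose above, in 37 of the 39 targets, against 23.3% of all genes. AKR1B10 (ENSG00000198074, chromosome 7, 134527592 to 134541408), which reduces retinal and lipid aldehydes, was at 300.4, 285.9 and 288.4 CPM against 99.3, 89.7 and 89.3 (1.65 ± 0.05, 3.14-fold). AKR1C1 rose by 1.50 ± 0.08 and AKR1C3 by 1.34 ± 0.12. The AKR1C genes are near-identical neighbours, and how their shared reads were split is uncertain.

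The detoxification genes rose in 7 of 7 members (median 0.76). ALDH3A1, an aldehyde dehydrogenase, stood at 70.3, 69.7 and 66.6 CPM against 24.7, 26.5 and 23.8 (1.46 ± 0.05, adjusted p = 6.08e-19). NQO1, the quinone reductase, stood at 878, 878 and 885 CPM against 522, 506 and 532 (0.76 ± 0.05), and the microsomal epoxide hydrolase EPHX1 rose by 0.67 ± 0.05. UGT1A6 rose by 0.76 ± 0.05, but genes of the UGT1A cluster share exons and its counts are uncertain. The doses did not overlap in any of these 4 genes.

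Glutathione genes rose in 5 of 5 (median 0.75) and thioredoxin genes in 4 of 4 (0.59). GCLM, the modifier subunit of glutamate-cysteine ligase, which catalyses the limiting step of glutathione synthesis, and the gene whose antioxidant core is shown above, was at 121, 119.7 and 118 CPM against 68.7, 61.9 and 63.0 (0.89 ± 0.05, 1.85-fold). Its catalytic partner GCLC rose by 0.75 ± 0.05, and the cystine importer gene SLC7A11 was at 227.5, 225.7 and 220.4 CPM against 135, 125 and 126 (0.80 ± 0.04). TXNRD1, thioredoxin reductase, was at 568, 552 and 571 CPM against 355, 309.9 and 339.6 (0.75 ± 0.07), and SRXN1, which repairs oxidised peroxiredoxin, rose by 0.64 ± 0.06. All 3 high-dose libraries lay above all low-dose libraries in these genes.

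Heme and iron genes rose in 5 of 5 (median 0.46). HMOX1, heme oxygenase, was at 21.6, 22.1 and 23.1 CPM against 12.2, 12.2 and 12.3 (0.86 ± 0.06), and FTH1, the ferritin heavy chain, was at 6265 ± 196 CPM against 4551 ± 124 (SD, n = 3). Of the 6 genes of NADPH supply 5 rose. TKT (transketolase) rose by 0.50 ± 0.03 and ME1 (malic enzyme) by 0.56 ± 0.03. IDH1, the cytosolic isocitrate dehydrogenase, was the target that fell, by 0.14 ± 0.03. Among export and other genes, ABCC2 rose from 1.26 ± 0.158 to 2.90 ± 0.504 CPM (1.21 ± 0.17), OSGIN1 rose by 0.76 ± 0.08 and TRIM16L by 0.88 ± 0.06. ABCC3 was the target that was not called, at 545 ± 14.1 against 539 ± 18.8 CPM.

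The regulators moved less than their targets. KEAP1 was at 75.7, 72.5 and 78.0 CPM against 58.9, 57.0 and 61.2 (0.35 ± 0.06), and SQSTM1, an autophagy receptor that binds KEAP1, rose by 0.31 ± 0.06. NFE2L2 itself was at 125.2 ± 3.73 against 125.1 ± 3.91 CPM (0.00 ± 0.04), with the doses overlapping. In all, 4 of 8 regulators were higher and none lower, with a median of 0.165. Among all genes 15.5% were higher, and in the highest quintile 39.8%. With only 8 members the count cannot be set apart from the share of that quintile. Of the 37 targets that were higher, 35 (94.6%) had a vehicle mean nearer to the low than to the high dose, against 76.7% of all 2708 genes called higher. All 37 had a medium-dose mean between the doses, as did 93.6% of those 2708 genes. On the log2 scale of mean CPM, the medium dose lay at a median of 19.5% of the way from low to high, against 33.9% over the 2708.

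**Figure D2:**
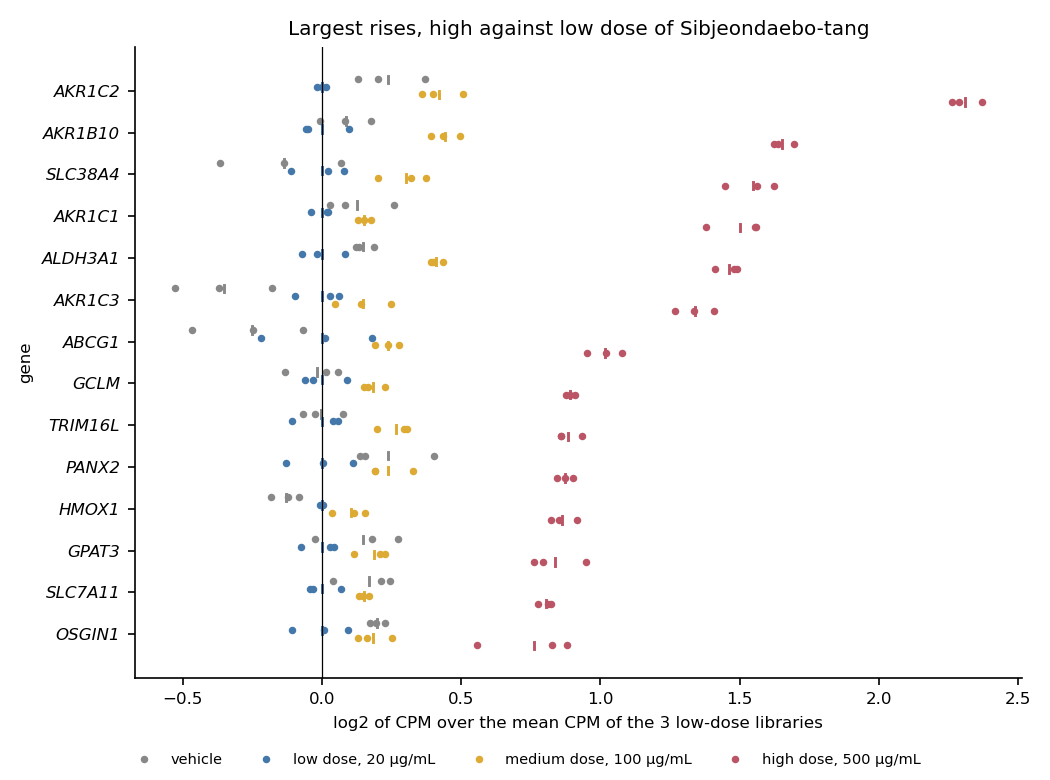
Of the 15 largest rises 14 are drawn, with the CPM of each library as log2 over the mean of the 3 low-dose libraries on the x axis and 1 gene per row; points are libraries and short bars are group means of vehicle, low, medium and high dose. All high-dose libraries lie to the right of every other library, and medium-dose means stay closer to the low than to the high dose.

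Outside the NRF2 list, the largest rises included transport and lipid genes. SLC38A4, an amino acid transporter gene, was at 8.69, 9.81 and 9.41 CPM against 2.95, 3.23 and 3.37 (1.54 ± 0.12, 2.92-fold). ABCG1, a sterol exporter and LXR target, was at 7.64, 7.95 and 7.29 CPM against 3.23, 3.80 and 4.27 (1.02 ± 0.10). PANX2, a pannexin channel gene, rose by 0.87 ± 0.08 and GPAT3, an acyltransferase of triglyceride synthesis, by 0.84 ± 0.06. Of the 9 measured LXR targets 5 were higher (55.6%, against 15.5% of all genes) and none lower. Among PPAR targets and fatty acid oxidation genes 8 of 19 were higher (42.1%, near the 39.8% of the highest quintile) and 1 lower. PDK4, a kinase that restrains pyruvate dehydrogenase, was at 10.3, 9.71 and 11.1 CPM against 6.59, 6.85 and 6.67 (0.63 ± 0.07), and CPT1A, the carnitine transferase of mitochondrial fatty acid entry, rose by 0.37 ± 0.04. The 8 became 5 without low-dose replicate 2.

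Sterol genes went the other way. Of 25 measured genes of sterol synthesis and uptake 13 were lower (52.0%, against 14.3% of all genes and 7.31% of the highest quintile) and none higher, with a median of -0.16. The 13 became 8 without high-dose replicate 2. LSS, lanosterol synthase, was at 98.8, 101 and 97.3 CPM against 123, 126 and 124 (-0.33 ± 0.03, adjusted p = 3.97e-08). INSIG1, an SREBP target that retains SREBP, fell by 0.34 ± 0.04. TM7SF2, a sterol reductase gene, fell by 0.47 ± 0.06 and HMGCS1 by 0.36 ± 0.06. ACSS2, which makes acetyl-CoA from acetate, had the lowest value of the 4 lipid lists, falling from 32.5, 30.8 and 33.7 to 15.7, 15.0 and 15.9 CPM (-1.06 ± 0.07), with the medium dose between at 26.0 and vehicle at 25.7.

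Genes of protein folding and turnover rose together by small amounts. Of 28 cytosolic heat shock and chaperone genes 25 were higher (89.3%, against 39.8% of the highest quintile) and none lower, with a median of 0.26. FKBP4, an HSP90 cochaperone, was at 308, 299 and 302 CPM against 233, 222 and 223 (0.42 ± 0.04), and HSPH1 (HSP110) was at 608, 568 and 585 CPM against 490.3, 462 and 467 (0.31 ± 0.04). HSPA8, whose promoter is shown above, rose by 0.23 ± 0.04, and all 6 measured subunits of the TRiC chaperonin rose (median 0.25). HSPB1, the small heat shock protein, stood at 118 ± 4.56 against 134 ± 10.3 CPM and was not called. Proteasome genes were higher in 27 of 28 (96.4%, against 39.8% of the highest quintile), with a median of 0.25, among them PSMC3 (0.29 ± 0.05) and PSMD11 (0.27 ± 0.04) of the regulatory particle. PSMB1 of the core was the member not called, at 0.22 ± 0.10.

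Of 27 unfolded protein response genes 14 were higher (51.9%, against 15.5% of all genes and 39.8% of the highest quintile). None was lower, and the median was 0.16. The list divided by role. Chaperones of the endoplasmic reticulum were higher in 10 of 11 and disulfide isomerases in 4 of 6, whereas none of 6 degradation genes and none of 4 sensors and factors was called. HSPA5 (BiP) was at 574, 529 and 563 CPM against 442, 438 and 470 (0.30 ± 0.04), and P4HB, a disulfide isomerase, rose by 0.27 ± 0.03. XBP1, a transcription factor of this response, was at 0.07 ± 0.04. The ATF4 list, which covers amino acid stress, held 11 higher of 25 (44.0%, near the 39.8% of the highest quintile) and 1 lower. The factor genes ATF4 (0.05 ± 0.05) and DDIT3 (-0.24 ± 0.12) were not called, while 4 of 5 amino acid transporters and 5 of 8 serine and one-carbon genes were higher. SLC7A5, the large neutral amino acid transporter, was at 359, 339 and 336 CPM against 265, 257 and 253 (0.42 ± 0.05), its partner SLC3A2 rose by 0.43 ± 0.07 and PSAT1 of serine synthesis by 0.32 ± 0.05. Cytosolic tRNA synthetases were higher in 10 of 12 (83.3%), none by more than 0.18.

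Most lists of growth and division genes were also mostly higher, with shares above the 39.8% of the highest quintile, except cytosolic ribosomal proteins. Ribosome biogenesis and MYC genes rose in 33 of 35 (94.3%, median 0.27), with NOLC1, a nucleolar phosphoprotein, at 416, 391 and 401 CPM against 337, 313 and 327 (0.31 ± 0.03) and MYC itself at 0.29 ± 0.05. Mitochondrial ribosomal proteins rose in 17 of 20 (85.0%, median 0.21). Cytosolic ribosomal proteins rose in 10 of 35 (28.6%, below the 39.8% of the highest quintile) with a median of 0.14, and leaving out single libraries gave 3 to 6, whereas a fit of only the 6 libraries compared gave 28. DNA replication genes were higher in 25 of 37 (67.6%, median 0.20), and none was lower. ORC1, of the origin recognition complex, was at 45.9, 41.9 and 44.0 CPM against 33.5, 31.9 and 33.7 (0.41 ± 0.05), and CDC6, which loads the helicase, at 104, 102 and 102 against 81.0, 82.1 and 84.5 (0.32 ± 0.03). Mitotic genes were higher in 26 of 35 (74.3%, median 0.16) and 1, CENPE, was lower. Without high-dose replicate 1 or low-dose replicate 3 the 26 became 16 and 17. CDC20 was at 189, 179.7 and 181 CPM against 147, 140.2 and 146.5 (0.34 ± 0.04).

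Energy metabolism differed between its parts. Glycolysis genes were higher in 15 of 24 (62.5%, against 39.8% of the highest quintile) and lower in 1. PFKP, a phosphofructokinase, was at 179, 176 and 176 CPM against 137, 132 and 139 (0.38 ± 0.04) and LDHA, lactate dehydrogenase, rose by 0.32 ± 0.03, while the aldolase gene ALDOC fell by 0.48 ± 0.06. Of 32 nuclear genes for oxidative phosphorylation 14 were higher (43.8%, close to the 39.8% of the highest quintile, median 0.16), which became 9 without low-dose replicate 3. None of the 13 mitochondrially encoded genes was called (median -0.06), and they took 7.20 to 7.45% of counts at the high dose and 7.56 to 8.83% at the low dose.

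**Figure D3:**
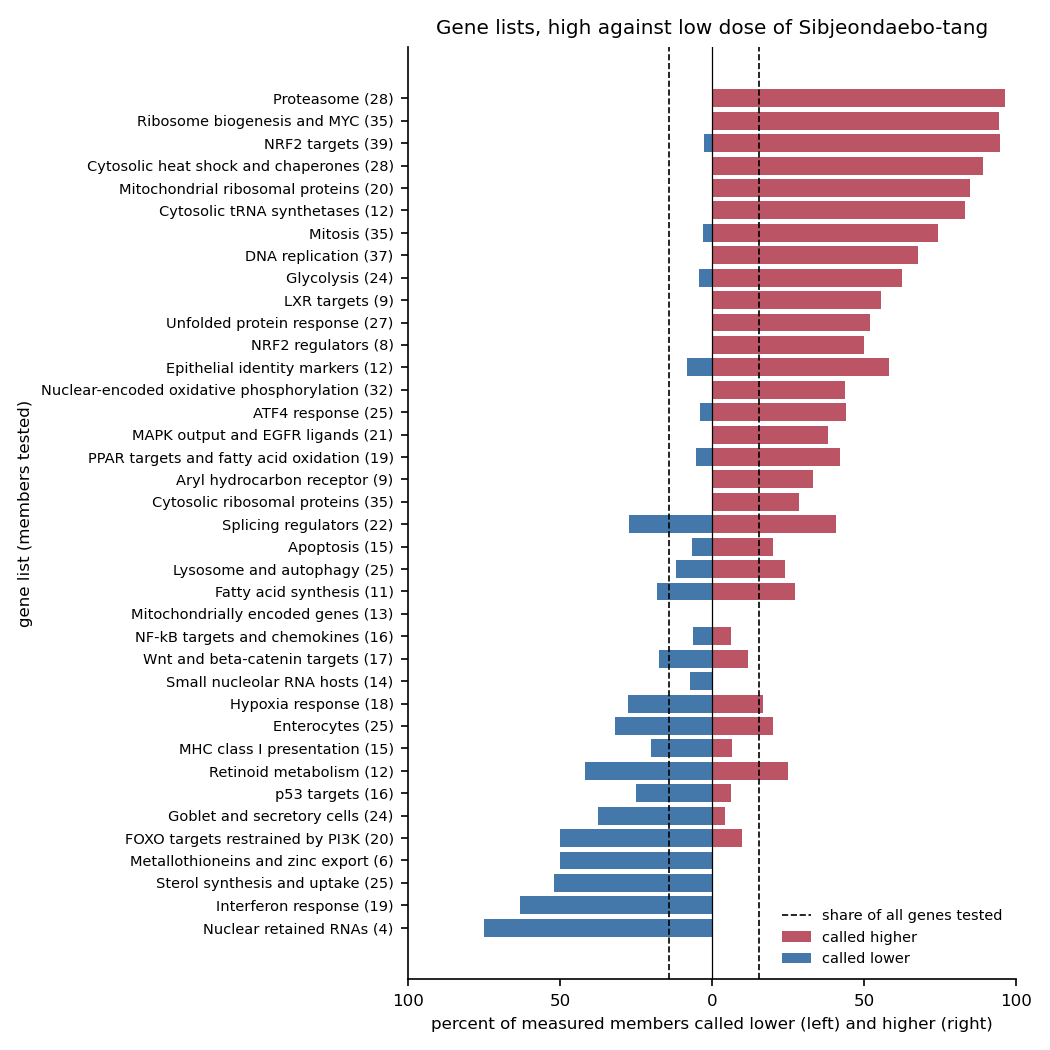
Percent of the measured members of each list called lower (bars to the left) and higher (bars to the right) at the high dose, with the number of members tested in brackets; dashed lines mark the shares of all genes tested, 15.5% higher and 14.3% lower. Proteasome, ribosome biogenesis and NRF2 lists reach furthest to the right, and nuclear retained RNAs (4 members), interferon and sterol lists furthest to the left.

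Both lists of intestinal differentiation held more lower than higher members. Goblet and secretory cell genes were lower in 9 of 24 (37.5%) and higher in 1 (4.17%), with a median of -0.30. Among all genes 14.3% were lower and 15.5% higher, and among protein-coding genes of the second lowest quintile 23.2% and 3.33%. MUC13, a membrane mucin, was at 104, 96.0 and 97.2 CPM against 147, 144 and 142 (-0.54 ± 0.04), and REG4 was at 21.4, 19.2 and 20.6 CPM against 27.0, 30.5 and 30.0 (-0.52 ± 0.07). CREB3L1, a secretory pathway factor, fell by 0.43 ± 0.06 and ATOH1, the factor that specifies secretory cells, by 0.58 ± 0.14. Enterocyte genes were higher in 5 (20.0%) and lower in 8 (32.0%) of 25. The 8 became 4 without high-dose replicate 3 or low-dose replicate 2 and 5 with DESeq2. VIL1 (villin) fell by 0.26 ± 0.03, whereas FABP1 rose from 2.20, 2.29 and 2.03 to 3.91, 4.31 and 3.77 CPM (0.88 ± 0.12) and KRT20 by 0.34 ± 0.05. CEACAM5, a surface glycoprotein gene on the epithelial list, was at 10.8, 9.53 and 8.96 CPM against 5.53, 6.57 and 5.67 (0.72 ± 0.11). Epithelial identity genes were higher in 7 of 12 (58.3%, against 39.8% of the highest quintile) and lower in 1.

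Interferon response genes were lower in 12 of 19 (63.2%, against 14.3% of all genes) and none was higher, with a median of -0.33. Every high-dose library lay below every low-dose library in 12 of 19, against 21.8% of all genes. IRF9 was at 6.99, 6.30 and 6.97 CPM against 10.9, 9.26 and 11.9 (-0.66 ± 0.11) and its partner STAT2 at 16.9, 19.2 and 16.9 against 23.6, 23.6 and 23.1 (-0.41 ± 0.05). Without high-dose replicate 1, high-dose replicate 2 or low-dose replicate 3, the 12 became 6, 7 and 6. FOXO targets were lower in 10 of 20 and higher in 2, against 14.3% lower and 15.5% higher among all genes. The median of this list was small, at -0.089. Among its lower members were CCNG2, a cyclin (-0.46 ± 0.04), and SESN1, a stress-induced metabolic regulator (-0.45 ± 0.04). The 2 higher members became 1 without high-dose replicate 1 or 3 or low-dose replicate 2 or 3. Of 16 p53 targets 4 were lower (25.0%) and 1 higher (6.25%), with BTG2 at -0.56 ± 0.06 and CDKN1A not called at -0.18 ± 0.07. Among Wnt targets 2 of 17 were higher (11.8%) and 3 lower (17.6%), near the shares of all genes. PROX1, a homeobox factor gene, fell by 0.60 ± 0.07, and AXIN2 (0.04 ± 0.05) and LGR5 (-0.04 ± 0.05) were not called.

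The other lists moved in part, and their shares are to be set against 15.5% higher and 14.3% lower among all genes. Retinoid metabolism genes were higher in 3 (25.0%) and lower in 5 (41.7%) of 12. ALDH1A1, which makes retinoic acid, was at 1247, 1279 and 1280.0 CPM against 919, 867.9 and 919.6 (0.49 ± 0.05), whereas STRA6, a retinol transporter gene, fell by 0.66 ± 0.09 and RARRES3, a retinoid-induced gene, by 0.53 ± 0.07. Splicing regulators were higher in 9 (40.9%) and lower in 6 (27.3%) of 22. The 9 became 4 to 5 without any one library other than low-dose replicate 2. Among the 22 regulators 3 of 4 CLK kinases, which phosphorylate splicing factors, were lower, CLK1 by 0.31 ± 0.04. Metallothionein and zinc genes were lower in 3 of 6, a count that became 1 without high-dose replicate 2.

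Fatty acid synthesis genes were higher in 3 of 11 (27.3%, against 15.5% of all genes) and lower in 2 (18.2%, against 14.3%). The desaturase gene FADS1 fell by 0.39 ± 0.08. Lysosome and autophagy genes were higher in 6 and lower in 3 of 25, with the galactosidase gene GLA at 49.2, 47.5 and 47.7 CPM against 34.9, 35.5 and 37.1 (0.43 ± 0.06) and the autophagy kinase gene ULK1 at -0.37 ± 0.06. Genes of MAPK output and EGFR ligands were higher in 8 of 21 (38.1%, near the 39.8% of the highest quintile) and none was lower. Leaving out high-dose replicate 1 or 3 or low-dose replicate 1 or 2 gave 5 in place of the 8. The ligand gene TGFA was at 88.8, 88.2 and 88.3 CPM against 72.0, 74.1 and 73.6 (0.27 ± 0.03), and the doses did not overlap.

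Hypoxia genes were higher in 3 of 18 (16.7%, against 15.5% of all genes) and lower in 5 (27.8%, against 14.3%). The glucose transporter gene SLC2A1 was at 0.26 ± 0.04 and BHLHE40, a repressor gene, at -0.37 ± 0.08. Of 15 apoptosis genes 3 were higher (20.0%) and 1 lower (6.67%). The 3 became 1 without high-dose replicate 2 or low-dose replicate 3. The lower one was BMF, a BH3-only gene, at 5.03, 4.59 and 5.07 CPM against 8.27, 8.45 and 8.56 (-0.78 ± 0.09). Of 9 aryl hydrocarbon receptor genes 3 were higher (33.3%) and none lower, and NQO1 and UGT1A6 of these are NRF2 targets as well. CYP1A1, the best known target of that receptor, was not called (1.16 ± 0.47), and without a filter on low counts or in fits of fewer groups the 3 became 5 or 6. Class I presentation genes were higher in 1 (6.67%) and lower in 3 (20.0%) of 15, and the 3 became 1 without high-dose replicate 1. NF-kB targets were higher in 1 and lower in 1 of 16 (6.25% each), the latter LCN2, a siderophore-binding protein gene (-0.36 ± 0.08). The higher one was not called without high-dose replicate 1, 2 or 3 or low-dose replicate 3. Of 14 small nucleolar RNA hosts 1, SNHG3, was lower (-0.14 ± 0.05), and it lost the call without high-dose replicate 1 or 2 or low-dose replicate 1 or 2.

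The largest falls were of another kind, with several noncoding and multicopy genes. IGFL2-AS1, an antisense RNA, was at 4.12, 4.33 and 3.57 CPM against 9.87, 9.23 and 8.33 (-1.19 ± 0.11), and PGGHG, a glucosidase of collagen sugars, at 59.1, 64.1 and 71.0 against 119.5, 146 and 152 (-1.11 ± 0.07, adjusted p = 1.93e-12). GOLGA8B was at 18.4, 15.6 and 19.4 CPM against 35.1, 40.0 and 43.2 (-1.15 ± 0.09). GOLGA8B, GOLGA8A (-0.96 ± 0.04) and HERC2P2 (-0.96 ± 0.07) belong to families of near-identical copies on chromosome 15, so their counts are uncertain. CSAD, a taurine synthesis enzyme, fell from 10.5, 11.2 and 10.8 to 5.07, 5.63 and 5.81 CPM (-0.98 ± 0.07), and HSF4, a heat shock factor gene, from 9.09, 11.1 and 11.9 to 4.79, 5.66 and 6.06 (-0.96 ± 0.09). The doses did not overlap in any of the 15 genes, which the naming rule required.

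Vehicle did not sit with the low dose in all of these falls. PGGHG was at 67.8 ± 0.838 CPM in vehicle and at 139 ± 17.4, 112 ± 7.76 and 64.7 ± 6.0 CPM from the low to the high dose (SD, n = 3), so the vehicle mean lay near that of the high dose. In 5 of the 15 falls the vehicle mean was nearer to the high dose: PGGHG, KIFC2, ARHGAP33, HSF4 and SLC9A3-AS1. HSF4 in vehicle (5.74 CPM) and SLC9A3-AS1 (8.15 CPM) also lay nearer to the high dose (5.50 and 7.23 CPM) than to the low dose (10.7 and 14.0 CPM). IGFL2-AS1 (9.44 CPM), COLCA1 (34.0 CPM) and CD200 (8.87 CPM) in vehicle lay at the level of the low dose (9.14, 32.0 and 8.23 CPM). Over all 2499 genes called lower, vehicle was nearer to the low dose in 72.5%, and over the 2708 called higher in 76.7%, against 58.6% of the genes not called. Vehicle libraries carry another kind of sample code than the Sibjeondaebo-tang libraries, and the labels do not say what the code means.

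**Figure D4:**
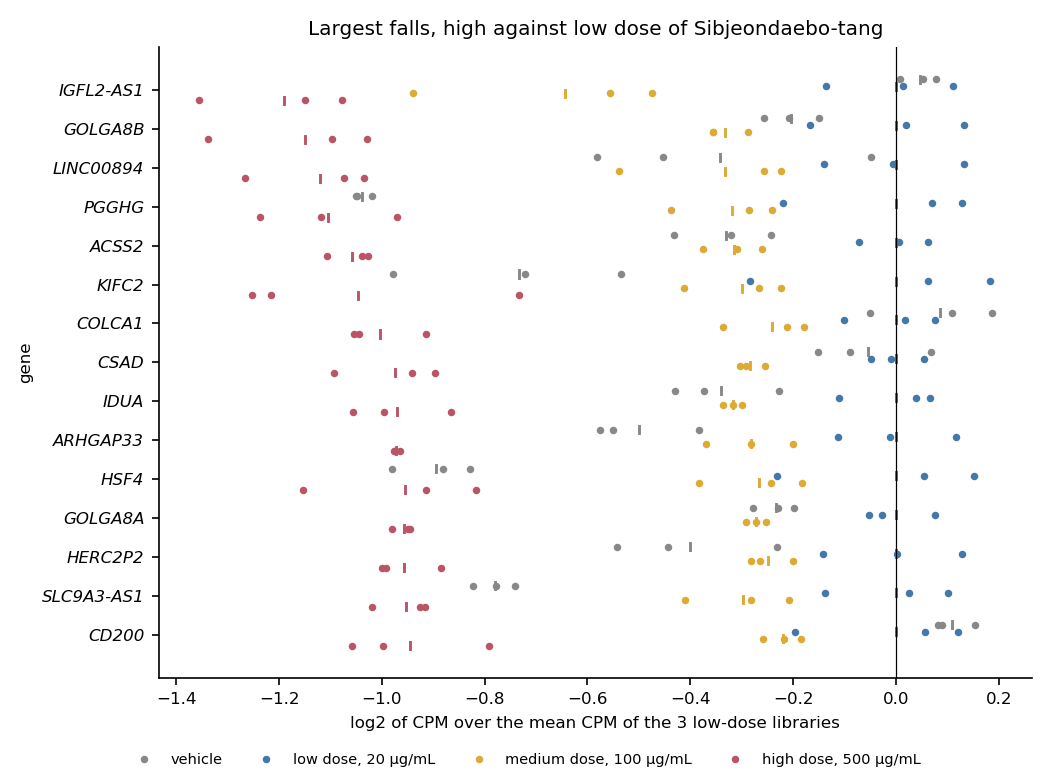
The 15 largest falls, drawn as for the rises, with log2 of CPM over the mean of the 3 low-dose libraries on the x axis. High-dose libraries lie to the left of all low- and medium-dose libraries, and vehicle lies at the low-dose level for IGFL2-AS1, COLCA1 and CD200 but nearer to the high dose for PGGHG, KIFC2, ARHGAP33, HSF4 and SLC9A3-AS1.

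Few noncoding transcripts were higher. Of 2856 tested genes of noncoding classes 444 were lower (15.5%) and 29 higher (1.02%), with a median of -0.24, against 14.2% lower and 20.0% higher among 13265 protein-coding genes (median 0.02). The classes differ in level, so they were also compared within quintiles of average expression. In the lowest quintile 6.56% of 1494 noncoding and 8.16% of 1312 protein-coding genes were lower, and in the second lowest 21.9% of 1089 and 23.2% of 1982. These 2 quintiles hold most of the noncoding genes, and in them the noncoding share was the smaller one. In the middle quintile 38.0% of 213 noncoding and 19.9% of 3117 protein-coding genes were lower, and in the next higher quintile 51.2% of 41 and 12.9% of 3406. Noncoding classes took 0.904 to 0.948% of counts at the high dose and 1.12 to 1.13% at the low dose, 0.646 to 0.681% and 0.777 to 0.790% without the 10 most counted of these genes. In vehicle they took 1.05 to 1.07%. Between 22662 and 22845 genes had a count at the high dose and between 23406 and 23595 at the low dose, at like depth. NEAT1, the scaffold RNA of paraspeckles, was at 217, 253 and 263 CPM against 357, 456 and 480 (-0.82 ± 0.10), and KCNQ1OT1 fell by 0.59 ± 0.07. In vehicle NEAT1 was at 304.9 CPM, between the doses. Of 4 nuclear retained RNAs 3 were lower, and MALAT1 was not called (-0.23 ± 0.10). The part of unspliced or nuclear RNA in these values was not tested. The library kit marks strand, but the strand setting of the counting is not given in the sources used here, so reads of antisense genes may include those of their partners.

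The dose difference was also set beside that of Palmul-tang, the smaller formula, which shares no library with it. Of the 2708 genes called higher, 96.6% also had a positive difference with Palmul-tang (median 0.195 against 0.122), and of the 2499 called lower 85.4% had a negative one (median -0.397 against -0.167). These genes were chosen by their Sibjeondaebo-tang difference, so its larger medians follow in part from that choice. Over all genes tested the signs matched in 72.7%, and the medians were -0.008 with Sibjeondaebo-tang and 0.0 with Palmul-tang. The difference between the extracts was then tested for each gene as an interaction. It was called for 252 genes (1.45%), of which 5 (0.0287%) were above the Palmul-tang value and 247 (1.42%) below it. Of the 247, 239 were also called lower between the doses of Sibjeondaebo-tang, against 14.3% of all genes. The interaction contains that same dose difference, so much of this overlap follows from how it is built. AKR1C2 went from 12.3, 13.2 and 10.0 CPM at the low dose of Palmul-tang to 37.8, 36.7 and 36.3 at its high dose (1.64), against 2.31 with Sibjeondaebo-tang, a difference of 0.67 ± 0.10 (adjusted p = 0.000264). For AKR1B10 (0.16 ± 0.07), GCLM (0.10 ± 0.06) and HMOX1 (-0.13 ± 0.08) the difference was not called. AKR1C2 was the only NRF2 target called above its Palmul-tang value, and 1, ABCC3, was called below it (-0.26 ± 0.06). The median difference over the 39 NRF2 targets was 0.076.

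Among genes with a mean log2 CPM of at least 2, those called below the Palmul-tang value were led by GOLGA8B (-1.05 ± 0.13), CSAD (-1.0 ± 0.1) and KIFC2, a kinesin gene (-0.99 ± 0.16). CSAD was at 9.75, 10.8 and 10.6 CPM at the high dose of Palmul-tang and at 10.4, 10.1 and 10.2 at its low dose, so its 2 doses overlapped there. PGGHG had a dose difference of -0.23 with Palmul-tang and -1.11 with Sibjeondaebo-tang (difference -0.87 ± 0.09), and NEAT1 of -0.07 and -0.82 (difference -0.74 ± 0.14). Among the classes, noncoding genes had a median dose difference of -0.05 with Palmul-tang and -0.24 with Sibjeondaebo-tang. ACSS2 (-0.96), CD200 (-1.05) and IGFL2-AS1 (-1.05) had negative dose differences with Palmul-tang too, and none of these 3 differences between extracts was called.

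**Figure D5:**
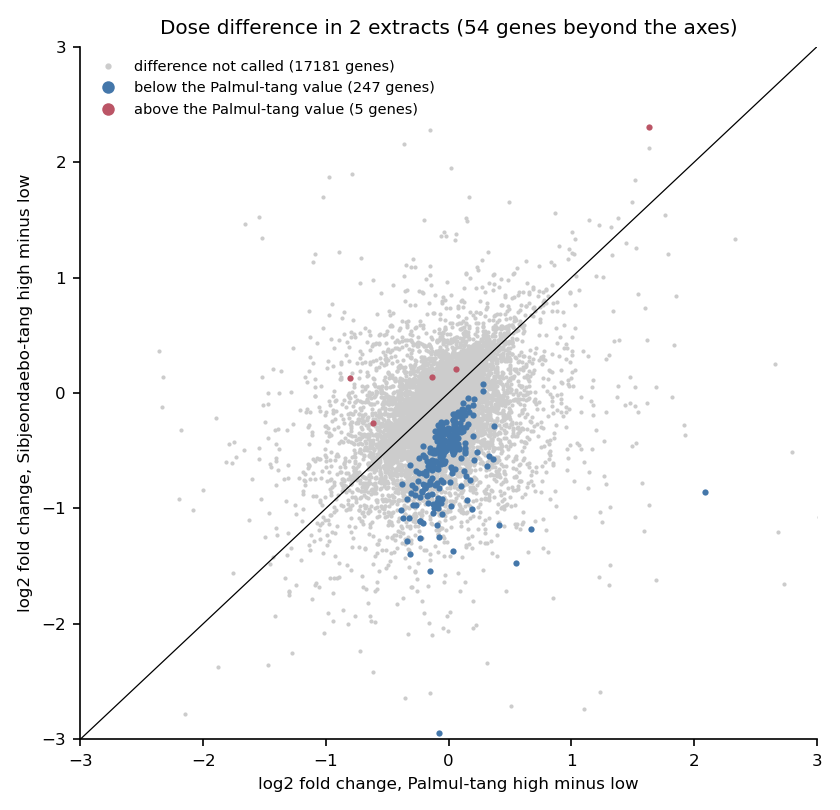
Log2 fold change from low to high dose with Palmul-tang (x axis) and with Sibjeondaebo-tang (y axis) for each gene tested; the line marks equal values and colours mark the 252 genes whose difference was called. The 247 coloured genes below the line gather where Palmul-tang values are near 0 and Sibjeondaebo-tang values are negative. Of the 5 coloured genes above it, AKR1C2 lies furthest to the upper right. AKR1B10 and SLC38A4, whose differences were not called, also lie there.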

How the data were processed

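RNA-seq of HT29 cells was analysed from the authors' deposited table of estimated counts per gene. Per the submitters' processing notes, FastQC 0.11.9, Trim Galore 0.6.5, STAR 2.7.3a, RSEM 1.3.3 and the build hg38 were used; the annotation release and the strand setting of the counting are not given in the sources used here. The table has 273 columns, of which 33 match samples of this series and 240 were not used. Of the values 9.45% were not whole and all were rounded. Gene classes and coordinates came from GENCODE 29, in which 57055 of 60675 gene identifiers were found.

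Counts were scaled by TMM, filtered with filterByExpr (17433 genes left) and tested with edgeR 4.0.16 (R 4.3.3, quasi-likelihood test, two-sided) in 1 fit of all 33 libraries in 13 groups, with 20 residual degrees of freedom. The p-values were adjusted by Benjamini-Hochberg over all genes tested, with a threshold of 0.05. The difference between extracts was an interaction contrast in the same fit. Values after ± are standard errors on the log2 scale unless marked SD. DESeq2 1.42.0 was an alternative, as were other scaling, filtering, samples, a replicate block, a minimum fold, the removal of length and GC trends, and leaving out each library. The authors' pipeline assigns multi-mapping reads by estimation, which bears on gene families.

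The naming rule took the 15 largest called rises and falls with a standard gene name, mean log2 CPM of at least 2 and no overlap of the doses, from each list at most 4 tested genes in order of p, and the 6 largest called differences from Palmul-tang each way, with the same limit on mean log2 CPM. Further members named to show a role or an exception were chosen after their values were seen. The 42 lists hold 826 distinct genes, of which 770 were tested. The members and lists were chosen with earlier results of these data known. On simulated counts with 200 changed genes of 17433, the test recovered 46.3% of changes of 0.25, 61.2% of 0.5 and 72.7% of 1 on the log2 scale, with 6 false calls. Counts of replicates within each dose differed by more than sampling noise (chi-square per degree of freedom 4.22 to 7.85), so none was a copy of another. That measure cannot tell separate cultures from repeated preparations of the same RNA. Libraries of the other groups entered the filter on low counts, the number of genes over which p was adjusted and the estimate of the spread, and those of Palmul-tang also the interaction contrast. Results for some genes are not reported here.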

Additional observations from a re-analysis of the deposited data

Results flagged for a closer look

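The dose difference, high minus low, was not the same for Sibjeondaebo-tang and Palmul-tang in 252 genes by the interaction test of edgeR: 5 were higher and 247 lower with Sibjeondaebo-tang. Of the 5, 4 had a mean log2 CPM of at least 2, and among these the largest difference was that of AKR1C2, an aldo-keto reductase (0.67 ± 0.10, log2 ± SE, adjusted p = 0.000264). The other, named after its values were seen, was the collagen gene COL1A1, a fibroblast marker at 1.28 CPM at the high and 1.17 CPM at the low dose (difference 0.93 ± 0.24, adjusted p = 0.0431). CLIC3, a chloride channel family gene, differed by 0.35 ± 0.09 (adjusted p = 0.0484), with own dose differences of -0.26 with Sibjeondaebo-tang and -0.62 with Palmul-tang. COIL, the coilin gene of Cajal bodies, differed by 0.27 ± 0.06 (adjusted p = 0.0206), and the lactate transporter gene SLC16A1 by 0.15 ± 0.04 (adjusted p = 0.0432). CLIC3, COIL and SLC16A1 each lost the call in many of the alternative analyses. AKR1C2 has near-identical neighbours, so how shared reads were split is uncertain for it too. For the neighbours AKR1C1 (0.35 ± 0.11) and AKR1C3 (0.31 ± 0.17) the difference was not called.

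With the same limit on expression, the largest negative differences were those of GOLGA8B (-1.05 ± 0.13, adjusted p = 8.49e-06), the taurine synthesis gene CSAD (-1.0 ± 0.1, adjusted p = 4.52e-07) and the kinesin gene KIFC2 (-0.99 ± 0.16, adjusted p = 0.000496). They were followed by the noncoding gene LINC00894 (-0.91 ± 0.17, adjusted p = 0.00314), the pseudogene HERC2P2 (-0.89 ± 0.10, adjusted p = 1.66e-06) and PGGHG (-0.87 ± 0.09, adjusted p = 1.66e-06). GOLGA8B and HERC2P2 have near-identical copies, so their counts are uncertain.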

How the results depend on the processing

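With a minimum change of 0.25 (glmTreat), 121 genes were higher and 589 lower in place of 2708 and 2499, and the difference from Palmul-tang was called for 1 higher and 36 lower in place of 5 and 247. The 5 became 74 without a filter on low counts, 30 with DESeq2, 17 with length and GC trends removed, and 1 to 9 when single libraries were left out; the 247 became 400 without the filter and 169 to 280 when single libraries were left out. Removing length and GC trends, chosen after seeing the data, moved the share of calls that were higher from 52.0% to 61.0% (3549 higher and 2268 lower). Leaving out single libraries gave 2085 to 2335 higher and 1937 to 2243 lower. With the replicate block, 3012 were higher and 2694 lower in the fit of 33 libraries and 3419 and 2804 in that of the groups compared; the difference from Palmul-tang was then called for 13 higher and 312 lower, and 10 higher and 292 lower. Same-numbered libraries correlated at 0.07, 0.14 and 0.29 in their deviations and each correlated best with its own number, a hint from the data and not from the design. Of 198 named genes recomputed 2771 times none changed sign, and 56 times a call was lost and 24 times gained. MUC2 lost its call without low-dose replicate 2, and CENPE without high-dose replicate 3. Depth limits the genes of low count, which the filter left out, and 3 libraries per dose limit the precision of all values.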
